A study of Mus musculus with 12 samples.

Results

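Transcripts of the adrenomedullin system were followed across 12 RNA sequencing libraries of mouse hearts at embryonic day 9.5. The system was taken as 6 genes, found by symbol among 15663 genes in the joined expression tables. They were the ligand genes Adm and Adm2, the receptor gene Calcrl, and Ramp1, Ramp2 and Ramp3, which encode receptor activity modifying proteins (RAMPs). Of the 6, 5 were listed for all libraries. Adm2 was listed for 9 libraries of 3 groups, was not listed for the other group, and was not set to 0 there.

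Adrenomedullin is a secreted peptide that dilates vessels and tightens the endothelial barrier. It acts on a receptor made of the G protein-coupled CALCRL and a RAMP partner, which carries CALCRL to the cell surface and sets which ligand it prefers. With RAMP2 or RAMP3 the pair is an adrenomedullin receptor, and with RAMP1 it is the receptor of calcitonin gene-related peptide. The product of Adm2, also called intermedin, can act on CALCRL with any of the RAMPs. Mouse embryos without Adm, Calcrl or Ramp2 are known to die in mid-gestation with fluid accumulation and defects of vessels and heart, and Adm is a known target gene of the hypoxia-inducible transcription factors.

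The 4 genotype groups held 3 libraries each, all on strain C57/BL 6 and all with a Cre driver given as NkxCre and at least 1 floxed Asb2 allele. The libraries labelled NkxCre.Asb2fl/fl.Flnafl/fl are called doubly labelled, and the Asb2 conditional knockout (cKO) was NkxCre.Asb2fl/fl. A further group was NkxCre.Asb2fl/+.Flnafl/fl, and the control was NkxCre.Asb2fl/+, so the controls also carried Cre and a floxed allele. Asb2 encodes the substrate-recognition subunit of a ubiquitin ligase, and Flna encodes the actin crosslinker filamin A, one of the proteins this ligase targets. The design sets deletion of Asb2, alone and joined with deletion of Flna, against the control. The labels do not name the promoter behind the driver beyond this. They do not say whether a library came from 1 heart or from pooled hearts, so p-values measure only how these libraries spread, which may in part be technical.

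The libraries held 25954539 to 42473118 reads in listed genes, and 1 read was worth 0.0239 to 0.038 CPM, the read count scaled to library size in which levels are given here. Asb2 was at 131.9 ± 18.05 CPM in the doubly labelled libraries, 118.5 ± 42.7 CPM in the Asb2 cKO, 145.1 ± 45.41 CPM in NkxCre.Asb2fl/+.Flnafl/fl and 230.2 ± 54.07 CPM in the control (SD, n = 3 each). It was lower than in the control in the doubly labelled libraries (log2 fold change -0.78, limma adjusted p = 0.00724) and in the Asb2 cKO (-0.99, adjusted p = 0.0248), and in NkxCre.Asb2fl/+.Flnafl/fl it did not pass (-0.68, adjusted p = 0.334). Since that group overlapped both, Asb2 RNA did not separate the libraries labelled Asb2fl/fl from the rest, and Asb2 deletion below is by label. Flna was not lower where its deletion was labelled. It was higher than in the control in the doubly labelled libraries (1057 against 588.6 CPM, log2 fold change 0.86, adjusted p = 0.00255), and in NkxCre.Asb2fl/+.Flnafl/fl it was at 986.0 CPM (0.76, adjusted p = 0.147). The level of Flna RNA thus goes against the label of both groups, and the libraries of the second are called Flna-labelled. RNA of heart tissue counted over the gene does not test the deletion itself. Flna was also higher than in the control in the Asb2 cKO, which carries no Flna label (875.3 CPM, log2 fold change 0.58, limma adjusted p = 0.0464). All 17 cardiomyocyte markers had reads in every library, with summed levels of 33400 to 51500 CPM in doubly labelled hearts, 28100 to 47600 CPM in Asb2 cKO hearts, 21000 to 38600 CPM in the Flna-labelled libraries and 34300 to 51200 CPM in the control. Xist, the transcript of the inactive X chromosome, was at or under 9.3 CPM in the 6 libraries with floxed Flna and ranged from 0.38 to 571 CPM in the other 6, so sex-linked transcripts were not balanced over the groups. Flna lies on the X chromosome, so Flnafl/fl names a pair of X alleles, while Xist was low in every library with that label. Comparisons of groups with and without floxed Flna also differed in Xist, so sex and the Flna label cannot be fully told apart there.

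Adm (ENSMUSG00000030790, chromosome 7, 110627661 to 110629820, plus strand, GRCm38), the adrenomedullin gene, was several-fold higher in the libraries labelled for Asb2 deletion. It had 50.7, 45.7 and 52.1 CPM in the doubly labelled libraries and 34.7, 67.7 and 38.2 CPM in the Asb2 cKO libraries. The Flna-labelled libraries had 7.64, 11 and 13.4 CPM, and the control libraries had 10.6, 8.86 and 10.3 CPM. Every library labelled Asb2fl/fl lay above every library without, and Asb2 cKO library 2 was the highest of all. In the Asb2 cKO Adm rose 4.35-fold over the control (log2 fold change 2.12, SE 0.23, 95% interval 1.6 to 2.64, limma adjusted p = 0.000354). It rose 4.8-fold in the doubly labelled libraries over the control (2.26, SE 0.13, interval 1.96 to 2.56, adjusted p = 5.51e-06) and 4.57-fold over the Flna-labelled libraries (2.19, SE 0.19, adjusted p = 0.000201). A fold change here is a difference of log2(CPM + 0.5) between group means, with Benjamini-Hochberg adjustment over all genes tested and a threshold of 0.05. Only 0.542% of the genes tested had a larger fold change than Adm in the Asb2 cKO.

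The difference between the Flna-labelled libraries and the control was small for Adm and did not pass (0.07, interval -0.41 to 0.55, adjusted p = 0.911). The difference between the doubly labelled libraries and the Asb2 cKO did not pass either (0.14, interval -0.35 to 0.63, adjusted p = 0.999). Without Asb2 cKO library 2, Adm was still higher in the Asb2 cKO than in the control (1.83, adjusted p = 0.000293).

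Adm2 (ENSMUSG00000054136, chromosome 15, 89322720 to 89324731, plus strand) showed the same order at lower levels, and its increase was the largest among the 6 genes. It had 13.9, 12.1 and 10.6 CPM in the doubly labelled libraries and 6.18, 12 and 6.81 CPM in the Asb2 cKO libraries. The control libraries had 0.592, 0.384 and 0.548 CPM, which stand for 14 to 18 reads each. These levels are under the filter of 1 CPM, so Adm2 entered the tests only through the groups labelled for Asb2 deletion. The groups labelled for Asb2 deletion did not overlap the control, and library 2 was again the highest of the Asb2 cKO. The ratio of mean levels was 24 for the doubly labelled libraries and 16.4 for the Asb2 cKO over the control. On the log2(CPM + 0.5) scale, which understates the change of a gene this low in the control, Adm2 rose by 3.65 in the doubly labelled libraries (SE 0.24, limma adjusted p = 9.99e-06) and by 3.08 in the Asb2 cKO (SE 0.32, adjusted p = 0.000281). The authors' deposited table lists 4.59 and 4.03 for the same log2 fold changes. Between the doubly labelled libraries and the Asb2 cKO, Adm2 differed by 0.58 (interval 0.01 to 1.14), which did not pass over all genes (adjusted p = 0.999).

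**Figure D1:**
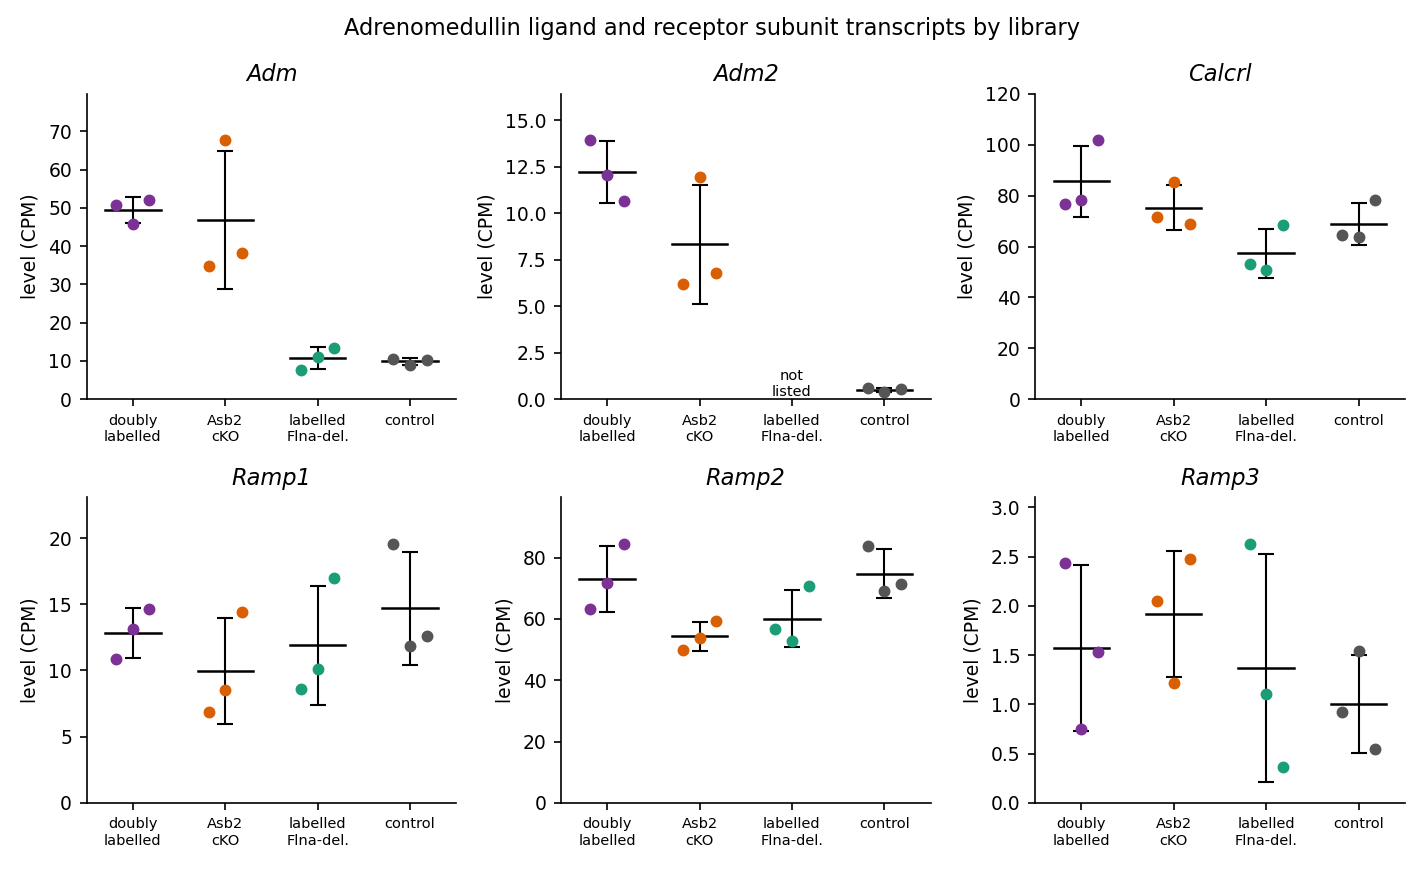
Levels of the 6 transcripts in CPM (vertical axes from 0) in each library. Points are libraries 1, 2 and 3 from left to right, horizontal lines are group means and bars are SD (n = 3). Adm and Adm2 stand apart in the doubly labelled libraries and the Asb2 cKO, while the receptor subunits overlap between most groups.

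The promoters of both ligand genes are shown because their transcripts carried the largest changes. Each line gives the 250 bases before the RefSeq transcription start (GRCm38.p6, plus strand, 5′ to 3′), chr7:110627407-110627656 for Adm and chr15:89322470-89322719 for Adm2. Capitals mark matches of the letters ACGTG or GCGTG, the core of the site bound by hypoxia-inducible factors, on either strand.
Adm: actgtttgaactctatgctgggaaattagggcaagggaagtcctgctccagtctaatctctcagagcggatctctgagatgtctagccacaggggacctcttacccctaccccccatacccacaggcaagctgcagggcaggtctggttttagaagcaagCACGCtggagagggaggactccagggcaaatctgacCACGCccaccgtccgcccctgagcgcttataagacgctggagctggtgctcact
Adm2: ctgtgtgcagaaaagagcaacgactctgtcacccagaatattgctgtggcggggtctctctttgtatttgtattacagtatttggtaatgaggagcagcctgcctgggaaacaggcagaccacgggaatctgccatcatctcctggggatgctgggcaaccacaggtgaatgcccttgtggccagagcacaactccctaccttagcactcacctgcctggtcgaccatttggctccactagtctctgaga
The Adm window holds 2 matches of GCGTG, both on the minus strand (read as CACGC above), which end 86 and 50 bases before the start. It holds 0 of ACGTG. The Adm2 window holds 0 of either, and neither window holds TGATGNAA, the letters of the element bound by amino acid stress factors. Of 32851 promoter windows of this length in the table, 28.2% hold GCGTG, 16.6% hold ACGTG, 38.6% hold at least 1 of them and 3.45% hold TGATGNAA, so the matches in Adm are common ones. A match is a description of letters and does not show that a factor binds.

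Adm moved with the known genes of the hypoxia response. Of 33 hypoxia-induced genes other than Adm that were tested, 31 rose and 1 fell in the doubly labelled libraries (median log2 fold change 1.81), and 29 rose and 0 fell in the Asb2 cKO (median 1.63), each against the control, where the median over all genes was 0.01 and -0.01. Over all genes tested, 15.6% rose and 16.7% fell in the doubly labelled libraries and 10.7% rose and 10.9% fell in the Asb2 cKO. The gene that fell was Pfkfb4, an enzyme of glycolytic control (-0.86, limma adjusted p = 0.0273). In the Flna-labelled libraries 0 of 32 passed by limma against the control (median -0.02), and 5 had an unadjusted p under 0.05, 4 of them higher. Over all genes tested there, 1822 of 13891 had an unadjusted limma p under 0.05. The list was chosen with earlier results of these data known, so its counts describe these libraries. Its summed level was 18200 to 18400 CPM in the doubly labelled libraries, 15800 to 20000 CPM in the Asb2 cKO, 6680 to 9570 CPM in the Flna-labelled libraries and 7600 to 10300 CPM in the control.

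Over the 12 libraries the gene whose pattern was most like that of Adm was Vegfa, which encodes the vessel growth factor VEGF-A (Pearson r of log2(CPM + 0.5) 0.994, n = 12). It was followed by Egln1, an oxygen-sensing prolyl hydroxylase (0.993), and Hk2, a hexokinase of glycolysis (0.992). Vegfa had 297, 292 and 302 CPM in the doubly labelled libraries, 181, 444 and 211 CPM in the Asb2 cKO libraries, 50.6, 57.2 and 69.9 CPM in the Flna-labelled libraries and 69.0, 54.6 and 58.6 CPM in the control libraries. Asb2 cKO library 2 was the highest of all for Vegfa, as it was for Adm. Because the libraries with and without Asb2 deletion form separate clusters, r was also taken within each, and it was 0.99 over the 6 libraries with the deletion and 0.85 over the 6 without. Adm2 had r of 0.989 with Adm over the 9 libraries that list it, and 0.79 over the 6 with Asb2 deletion. The points of each pair share library, depth and genotype, so these values describe the libraries and carry no test.

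**Figure D2:**
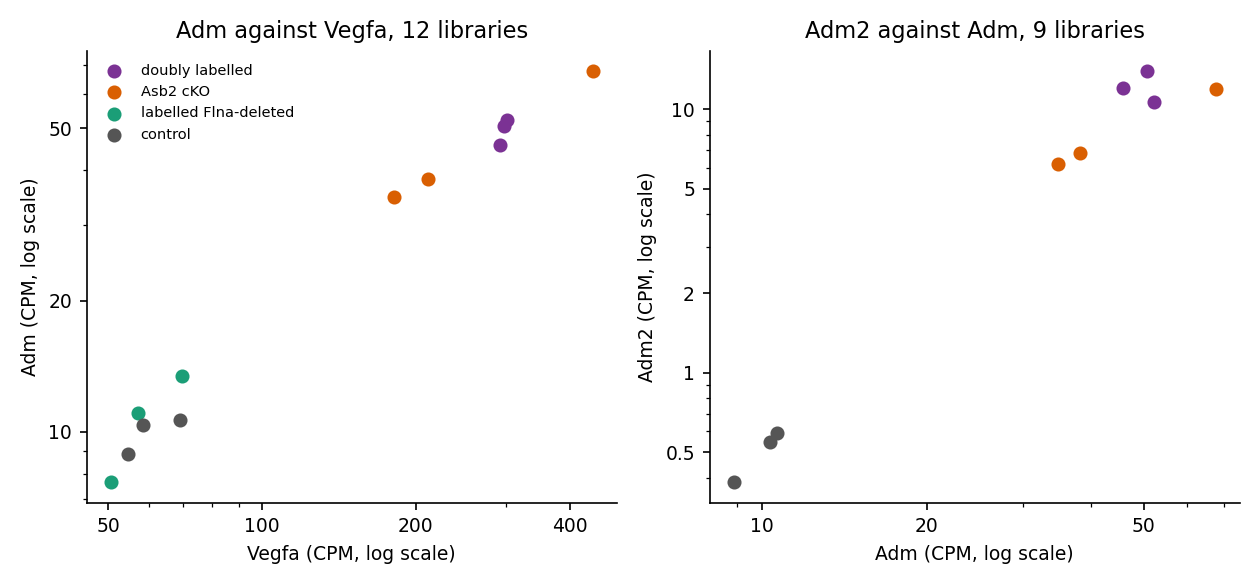
Adm against Vegfa in 12 libraries and Adm2 against Adm in 9 libraries, in CPM on log axes, with 1 point per library. The libraries with Asb2 deletion form the upper cluster in both panels, and Asb2 cKO library 2 has the highest Adm and Vegfa.

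Calcrl (ENSMUSG00000059588, chromosome 2, 84330626 to 84425411, minus strand), the gene of the shared receptor, differed little. It had 76.8, 78.4 and 102 CPM in the doubly labelled libraries, 71.4, 85.4 and 68.9 CPM in the Asb2 cKO libraries, 53.2, 50.6 and 68.5 CPM in the Flna-labelled libraries and 64.4, 63.7 and 78.2 CPM in the control libraries. Neighbouring groups in this order of means overlapped, with the Flna-labelled libraries lowest. The difference of the Asb2 cKO from the control was 0.13 (interval -0.18 to 0.44, limma adjusted p = 0.535), so a change of the size seen for Adm lies outside its interval. The doubly labelled libraries differed from the control by 0.31 (interval 0.0 to 0.62, adjusted p = 0.113).

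The doubly labelled libraries and the Flna-labelled libraries did not overlap for Calcrl, which was 1.49-fold higher in the doubly labelled libraries (0.57, SE 0.15, adjusted p = 0.0204). Leaving out Flna-labelled library 1 or 2 ended this call (adjusted p = 0.0726 for each), as did leaving out doubly labelled library 3 (adjusted p = 0.0559), and the adjusted p ran from 0.00108 to 0.0726 across 17 alternatives. Among the genes most like Calcrl over the 12 libraries were Qk (r = 0.941) and Cast (0.934).

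Ramp2 (ENSMUSG00000001240, chromosome 11, 101246028 to 101259546, plus strand), the partner in the main adrenomedullin receptor of vessels, was the most abundant RAMP transcript and was lower in the Asb2 cKO than in the control. It had 63.1, 71.6 and 84.6 CPM in the doubly labelled libraries, 49.8, 53.9 and 59.4 CPM in the Asb2 cKO libraries, 56.9, 52.9 and 70.6 CPM in the Flna-labelled libraries and 83.9, 69.0 and 71.4 CPM in the control libraries. The Asb2 cKO overlapped neither the control nor the doubly labelled libraries. Ramp2 fell to 54.4 ± 4.79 CPM in the Asb2 cKO, against 74.8 ± 7.99 CPM in the control (SD, n = 3 each; log2 fold change -0.45, SE 0.14, interval -0.75 to -0.15, limma adjusted p = 0.0373). That call rests on few libraries. Leaving out a control library ended it, with an adjusted p of 0.138 without library 1 (-0.37), 0.0707 without library 2 and 0.0635 without library 3. Leaving out Asb2 cKO library 1 or 2 ended it too (0.0945 and 0.0666 in that order), and the adjusted p ran from 0.0213 to 0.138 across 17 alternatives.

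Ramp2 in the doubly labelled libraries was close to the control (-0.04, interval -0.33 to 0.26, adjusted p = 0.852). Its difference from the Asb2 cKO was 0.42 (interval 0.11 to 0.73), which did not pass over all genes (adjusted p = 0.999). The annotated exons of Ramp2 cover 3301 bases, of which 1103 are also exons of Vps25 on the same strand. Vps25 itself is not listed for any library. How reads of the shared bases were counted is not known, which makes the Ramp2 level uncertain. Genes most like Ramp2 over the 12 libraries were Bfsp1 (r = 0.906), Rab12 (0.892) and Tek (0.886), the last a receptor of endothelial cells. Within the libraries with and without Asb2 deletion, r with Tek was 0.97 and 0.81 (n = 6 each).

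Ramp1 (ENSMUSG00000034353, chromosome 1, 91179822 to 91225196, plus strand), the partner for calcitonin gene-related peptide, had 10.9, 13.1 and 14.6 CPM in the doubly labelled libraries, 6.83, 8.55 and 14.5 CPM in the Asb2 cKO libraries, 8.60, 10.1 and 17.0 CPM in the Flna-labelled libraries and 19.6, 11.8 and 12.6 CPM in the control libraries. All 4 groups overlapped. Its largest difference from the control, in the Asb2 cKO, did not pass (-0.57, interval -1.2 to 0.05, limma adjusted p = 0.168). Ramp1 followed Ramp2 over the 12 libraries (r = 0.84, and 0.81 and 0.88 within the 6 libraries with and the 6 without Asb2 deletion), while r was -0.17 with Adm and -0.11 between Adm and Ramp2. The genes most like Ramp1 were Bfsp1 (0.933), Klhdc8b (0.929) and Bag2 (0.928).

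Ramp3 (ENSMUSG00000041046, chromosome 11, 6658521 to 6677475, plus strand), the alternative partner for adrenomedullin, was the lowest of the 5 genes listed for all libraries, with 2.43, 0.745 and 1.54 CPM in the doubly labelled libraries, 2.05, 1.22 and 2.48 CPM in the Asb2 cKO libraries, 2.63, 1.11 and 0.367 CPM in the Flna-labelled libraries and 0.921, 1.54 and 0.548 CPM in the control libraries. These stand for 10 to 104 reads, and the groups overlapped. No difference passed, and the interval in the Asb2 cKO against the control ran from -0.13 to 1.53 (log2 fold change 0.70, limma adjusted p = 0.202). Of the 1380 exon bases of Ramp3, 101 overlap a pseudogene on the opposite strand, and the strand used in counting is not given in the sources used here. The genes most like Ramp3 were Cldn3 (r = 0.862), Prtn3 (0.857) and Mdfi (0.853), the lowest values among the 5 genes so compared.

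Of the 6 genes, 3 were called in the Asb2 cKO against the control, Adm and Adm2 higher and Ramp2 lower, where 21.6% of 14034 genes tested were called (10.7% higher, 10.9% lower). In the doubly labelled libraries against the control 2 of the 6 were called, both higher, where 32.3% of all genes were called (15.6% higher, 16.7% lower). Against the Flna-labelled libraries, 2 of 5 were called in the doubly labelled libraries, both higher, where 31.5% of all genes were called (15.1% higher, 16.3% lower). These shares over all genes are high, so the counts among 6 genes say little by themselves. Adm2 was also tested only because its level with Asb2 deletion took it past the filter. By size, 0.585% and 0.0785% of the genes tested had a larger log2 fold change than Adm and Adm2 in the doubly labelled libraries against the control, and 0.128% had a larger one than Adm2 in the Asb2 cKO.

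For the Flna-labelled libraries against the control, 0 of 5 were called by limma, edgeR or DESeq2, where limma called 0.072% of all genes (0.0288% higher, 0.0432% lower). Ramp2 alone had an unadjusted p under 0.05 there, with each tool (-0.32, interval -0.61 to -0.02, limma adjusted p = 0.361). By limma, 1822 of all 13891 genes tested did so. For the doubly labelled libraries against the Asb2 cKO, 0 of 6 were called by the 3 tools, where limma called 0.0214% of all genes (0.0142% higher, 0.00712% lower). Unadjusted p was under 0.05 for Adm2 and Ramp2 by limma and for Ramp2 by edgeR and DESeq2. It was so by limma for 471 of all 14037 genes tested. The comparisons with the control share its 3 libraries.

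**Figure D3:**
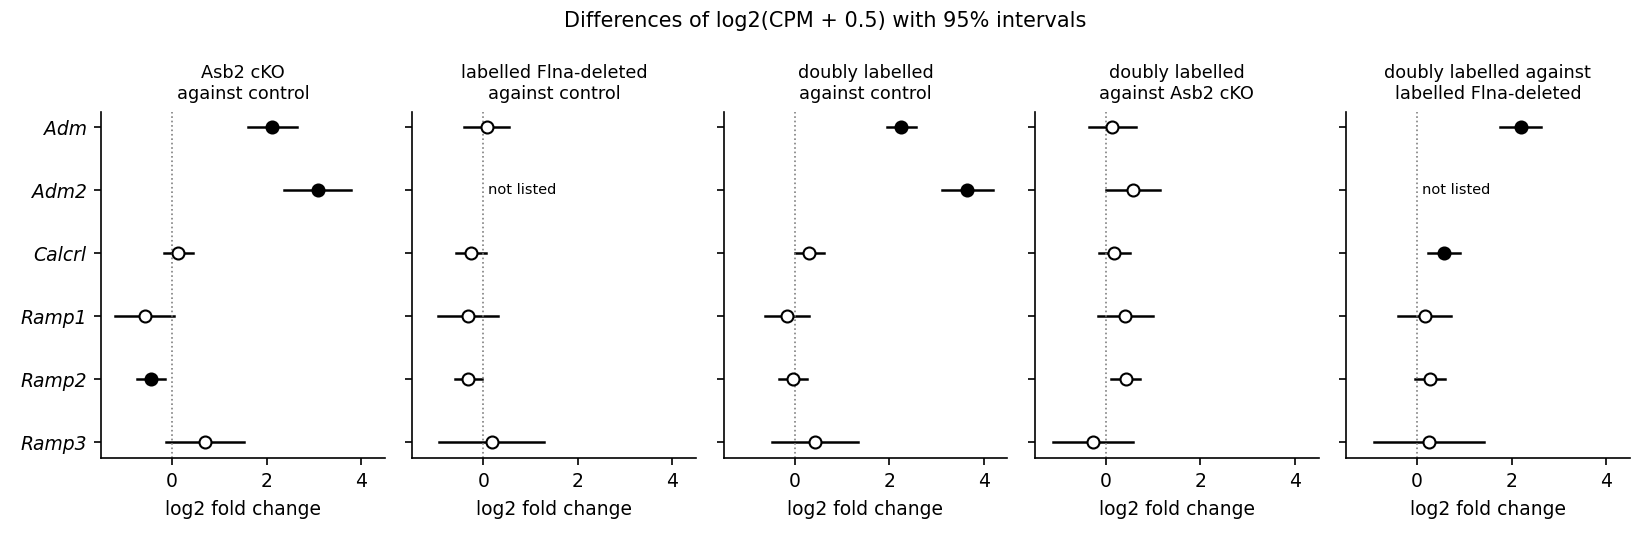
Log2 fold changes of the 6 transcripts (points) with 95% intervals (lines) in 5 comparisons, filled where the limma adjusted p was under 0.05. The ligands lie 2.12 or more to the right in the comparisons of libraries labelled Asb2fl/fl with those labelled Asb2fl/+. The receptor subunits lie between -0.57 and 0.70 there, with Ramp2 called in the Asb2 cKO against the control and Calcrl in the doubly labelled against the Flna-labelled libraries.

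The order of the transcripts within a heart changed with the ligands. Per kilobase of the deposited gene length, the control ranked Ramp2 first (22.7 ± 2.43 CPM per kb), then Calcrl (8.98), Adm (7.22), Ramp1 (4.87), Ramp3 (0.697) and Adm2 (0.489). In the control, the libraries of Adm and Ramp1 did not separate, nor did those of Ramp3 and Adm2. Adm ranked first in the doubly labelled libraries (36 ± 2.46 CPM per kb) and was followed by Ramp2 (22.2 ± 3.29), Adm2 (11.7 ± 1.58), Calcrl (11.2 ± 1.83), Ramp1 (4.26) and Ramp3 (1.09), with Adm2 and Calcrl overlapping. In the Asb2 cKO, Adm also ranked first (34 ± 13.2 CPM per kb), above Ramp2 (16.5), and Adm2 (8.0) was next to Calcrl (9.83). In the Flna-labelled libraries, Ramp2 (18.3) stayed first and Adm (7.76) overlapped Calcrl (7.5). The deposited length of Calcrl is 7657 bases, where its annotated exons cover 4882, and that of Adm is 1377, where they cover 1619. Levels per kilobase, and the ranks, overlaps and ratios between genes taken from them, thus depend on the length used. Those of Ramp2 also carry the uncertainty from Vps25 given above.

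The balance of ligand to receptor transcripts moved with Adm. The level of Adm per kilobase over that of Calcrl was 3.67, 3.24 and 2.85 in the doubly labelled libraries, 2.71, 4.41 and 3.08 in the Asb2 cKO libraries, 0.799, 1.21 and 1.09 in the Flna-labelled libraries and 0.917, 0.774 and 0.735 in the control libraries. The ratio was 2.71 or more in every library with Asb2 deletion and 1.21 or less in every library without. The lengths used set the size of this ratio and scale it alike in every library. Adm2 took 26.7, 25.9 and 21.3% of the summed ligand level per kilobase in the doubly labelled libraries, 19.1, 19.0 and 19.1% in those of the Asb2 cKO, against 6.87, 5.43 and 6.55% in the control libraries. The share was thus higher in every library with Asb2 deletion than in every control library, and the doubly labelled libraries lay above the Asb2 cKO. Among the RAMP transcripts, Ramp2 took 73.5 to 82.6% in all 12 libraries, and the groups overlapped in this share. The size of this share depends on how reads shared with Vps25 were counted.

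**Figure D4:**
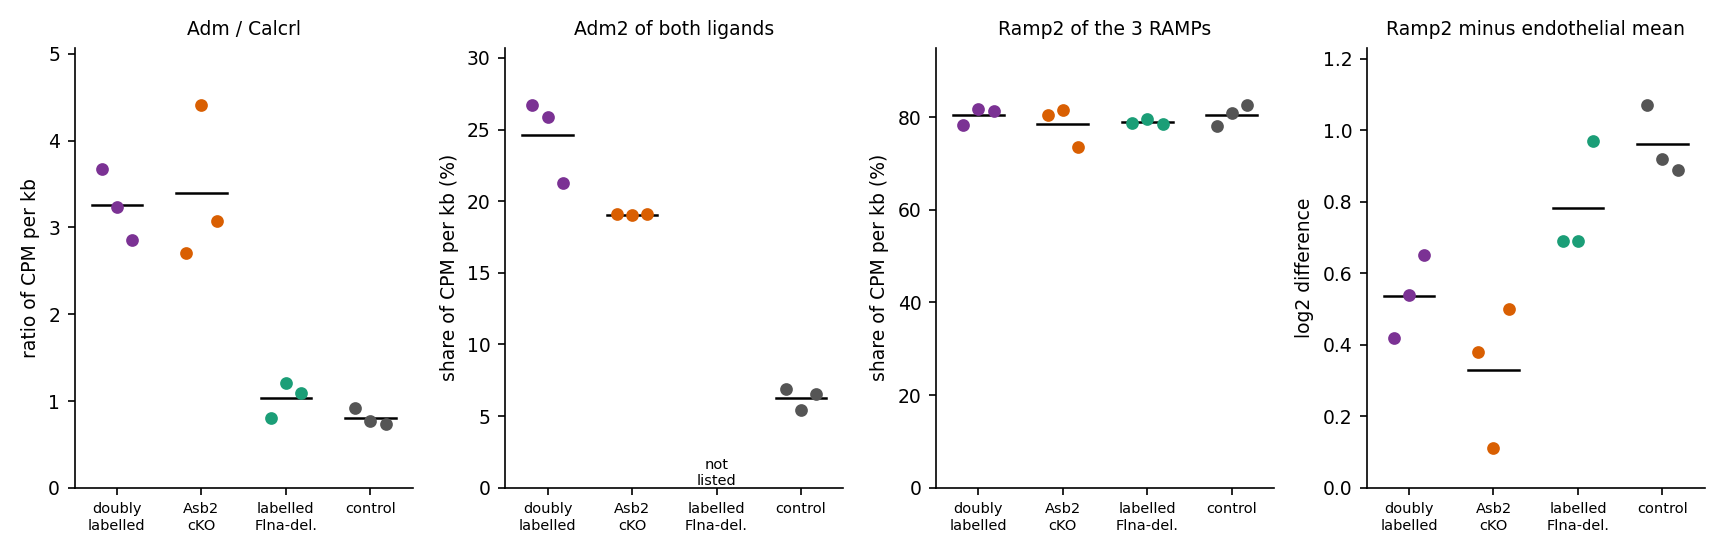
Ratio of Adm to Calcrl, share of Adm2 in the summed ligand level and share of Ramp2 in the summed RAMP level, all from CPM per kb, and the log2 level of Ramp2 minus the mean log2 level of 25 endothelial markers, by library (points) with group means (lines). The share of Ramp2 overlaps between all groups. The ratio of Adm to Calcrl separates libraries with Asb2 deletion from the rest, and the Ramp2 difference does so narrowly (0.65 against 0.69). The share of Adm2 separates them from the control, with no value for the Flna-labelled libraries.

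Calcrl and Ramp2 are mainly transcripts of endothelial and endocardial cells in the heart, so markers of these cells were set beside them. In tissue RNA, fewer cells of a type and less RNA per cell cannot be told apart. Of 25 endothelial and endocardial markers, 11 rose and 3 fell in the doubly labelled libraries (median log2 fold change 0.44), 5 rose and 5 fell in the Asb2 cKO (0.24) and 0 passed in the Flna-labelled libraries (-0.17, with 4 at an unadjusted limma p under 0.05), each against the control. Over all genes, 1822 of 13891 had such an unadjusted p in the Flna-labelled libraries against the control. In the doubly labelled libraries against the Flna-labelled libraries, where Calcrl rose, 13 of 25 rose and 2 fell (median 0.61). Their summed level was 1890 to 2390 CPM in the doubly labelled libraries, 1500 to 2140 CPM in the Asb2 cKO, 1230 to 1500 CPM in the Flna-labelled libraries and 1370 to 1640 CPM in the control, and 0 of the markers were at 0 in any library. Over all genes tested, 15.6% rose and 16.7% fell in the doubly labelled libraries and 10.7% rose and 10.9% fell in the Asb2 cKO against the control. In the doubly labelled libraries against the Flna-labelled libraries, 15.1% rose and 16.3% fell. The share of markers that rose was above that of all genes in each of these comparisons. The share of markers that fell was above it in the Asb2 cKO and not above it in the doubly labelled libraries. Of 17 cardiomyocyte markers, 5 rose and 0 fell in the doubly labelled against the Flna-labelled libraries (median 0.56). In the Flna-labelled libraries against the control 0 of these 17 passed, with a median of -0.51 (-1.09 to -0.32). There 6 were lower and 0 higher at an unadjusted limma p under 0.05. The part of either list in the result for Calcrl was not tested.

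Relative to the mean log2 level of the endothelial and endocardial markers, Calcrl lay 0.59 to 1.02 higher in the 12 libraries and overlapped between all groups. Ramp2 lay 0.42, 0.54 and 0.65 above that mean in the doubly labelled libraries and 0.38, 0.11 and 0.50 above it in the Asb2 cKO libraries. In the Flna-labelled libraries it lay 0.69, 0.69 and 0.97 above it, and in the control libraries 1.07, 0.92 and 0.89. Measured this way, Ramp2 was lower in all 6 libraries with Asb2 deletion than in all 6 without, narrowly so at 0.65 against 0.69. This includes the doubly labelled libraries, where its CPM level was close to the control. The marker mean was 5.66 there and 5.27 in the control, so the lower value there does not show a fall of Ramp2 itself. The markers themselves did not move together. Against the control in the Asb2 cKO, Flt1 (1.22, limma adjusted p = 0.00261), Kdr (0.97, adjusted p = 0.00494) and Sox17 (1.86, adjusted p = 0.000479) rose, Tal1 fell (-1.04, adjusted p = 0.00208) and Pecam1 was at 0.42 (adjusted p = 0.216).

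Other cell types also differed between the groups. Beside the counts that follow, 15.6% of all genes rose and 16.7% fell in the doubly labelled libraries against the control. In the Asb2 cKO against the control these shares were 10.7% and 10.9%. A marker averaging under 1 CPM in a group entered a test only through the other group. Of 15 primitive red cell markers, 14 fell and 1 rose both in the doubly labelled libraries and in the Asb2 cKO against the control, and their summed level was 1030 to 1080 CPM in the doubly labelled libraries, 935 to 1750 CPM in the Asb2 cKO, 3380 to 4330 CPM in the Flna-labelled libraries and 7840 to 8550 CPM in the control. The gene that rose was Tfrc, the transferrin receptor gene, which other growing cells also use. At most 1 of the markers was at 0 in a library. This list was thus lowest in the libraries where the ligands were highest. In the Flna-labelled libraries against the control, 4 of the 15 fell and 0 rose (median log2 fold change -1.0), where 0.0432% of all genes fell. With an unadjusted limma p under 0.05, 13 were lower and 0 higher, where 1822 of 13891 genes had such a p in either direction. Adm was at 0.07 in that comparison (limma adjusted p = 0.911). The part of this list in the ligand results was not tested. Of 13 markers of pharyngeal endoderm and surface epithelium, 5 rose and 1 fell in the Asb2 cKO and 0 passed by limma in the doubly labelled libraries (3 at an unadjusted p under 0.05), with summed levels of 71.2 to 259 CPM in the doubly labelled libraries, 147 to 264 CPM in the Asb2 cKO, 59.2 to 221 CPM in the Flna-labelled libraries and 52.9 to 156 CPM in the control. Over all genes, 6146 of 14015 had an unadjusted limma p under 0.05 in the doubly labelled libraries against the control. Of 5 markers of lymphatic endothelium, 2 rose and 0 fell in the doubly labelled libraries and likewise in the Asb2 cKO against the control, Nrp2 and Flt4 in each case. Of 10 markers of liver bud and yolk sac endoderm, 4 rose and 0 fell in the Flna-labelled libraries against the control, where 0.0288% of all genes rose. Against the Flna-labelled libraries, 10 of 10 fell in the doubly labelled libraries (median log2 fold change -3.79), where 16.3% of all genes fell and 15.1% rose. Their summed level was 2.95 to 5.04 CPM in the doubly labelled libraries, 6.0 to 147 CPM in the Asb2 cKO, 155 to 557 CPM in the Flna-labelled libraries and 8.70 to 320 CPM in the control, and their part in the results for Adm and Calcrl was not tested. With Xist as a covariate for the sex of the embryos, Adm (2.17) and Adm2 (3.13) kept their calls in the Asb2 cKO against the control.

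Whether the Flna genotype altered the response to Asb2 deletion was tested as an interaction over the 12 libraries, and 0 of the 5 genes listed for all of them passed, as did 0% of 13981 genes tested. By limma 1372 genes had an unadjusted p under 0.05, and edgeR called 0 genes and DESeq2 called 71. For Adm the interaction was 0.07 (interval -0.64 to 0.79, adjusted p = 0.947). It was 0.44 for Calcrl (interval -0.01 to 0.9, adjusted p = 0.507) and 0.73 for Ramp1 (interval -0.17 to 1.63, adjusted p = 0.566). For Ramp2 it was 0.73 (SE 0.20, interval 0.31 to 1.16, unadjusted p = 0.00232), which did not pass over all genes (adjusted p = 0.416). Ramp3 was at -0.44 (interval -1.86 to 0.97, adjusted p = 0.83). For Adm2 no interaction could be fitted, since 1 of the 4 groups has no value. The median interaction was 0.71 over 17 cardiomyocyte markers (0.47 to 1.24) and 0.41 over 25 endothelial and endocardial markers (-0.71 to 0.92). It was -0.7 for epicardial, -0.99 for pharyngeal and surface epithelium and -3.87 for liver bud and yolk sac markers. In each of these lists 0 passed. The part of tissue content in the values for Ramp2 and Calcrl was not tested.

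Genes that make, trim or clear adrenomedullin changed less than the ligands. The 5 described here are Pam, which amidates the peptide, Cpe, which trims its precursor, the peptidases Mme and Ide, and the scavenging receptor Ackr3. In the Asb2 cKO 1 of the 5 fell and 0 rose against the control, where 10.7% of all genes rose and 10.9% fell. The gene was Ide (-0.50, limma adjusted p = 0.0331), which also fell in the doubly labelled libraries (-0.38, adjusted p = 0.0254). Against the Flna-labelled libraries, 2 of the 5 rose and 3 fell in the doubly labelled libraries, where 15.1% of all genes rose and 16.3% fell. Pam (0.68, adjusted p = 0.0392) and Cpe (0.51, adjusted p = 0.00936) rose there, and Ackr3 (-1.04, adjusted p = 0.00215), Mme (-0.55, adjusted p = 0.0105) and Ide (-0.35, adjusted p = 0.0312) fell. Ackr3 had 13.5, 12.8 and 18.5 CPM in the doubly labelled libraries, 23.9, 13.5 and 18.2 CPM in the Asb2 cKO libraries, 30.9, 33.6 and 28.4 CPM in the Flna-labelled libraries and 16.1, 25.1 and 29.0 CPM in the control libraries. Its difference from the control in the doubly labelled libraries did not pass (-0.60, adjusted p = 0.068).

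Of the related calcitonin family, Calca, Calcr and Crcp were measured, and Calcb and Iapp were not listed. Crcp, which encodes a protein that couples CALCRL to its signal and is also a subunit of RNA polymerase III, fell in the Asb2 cKO (-0.62, adjusted p = 0.0138) and in the doubly labelled libraries (-0.72, adjusted p = 0.00254) against the control by limma. It had 16.4, 17.5 and 17.4 CPM in the doubly labelled libraries, 18.0, 18.9 and 18.1 CPM in the Asb2 cKO libraries, 28.0, 28.7 and 35.3 CPM in the Flna-labelled libraries and 26.5, 29.5 and 29.6 CPM in the control libraries, with no overlap between those with and without Asb2 deletion. Calca, the gene of calcitonin and calcitonin gene-related peptide, rose in the doubly labelled libraries against the Flna-labelled libraries (1.05, adjusted p = 0.0128) and was at 0.48 against the control (adjusted p = 0.129). Calcr, the calcitonin receptor gene, stayed between 0.592 and 3.03 CPM in all libraries and passed in none of these comparisons.

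Other receptors known to bind RAMPs were mostly low or not listed. Of 9, 5 were listed for at least 1 group and 2 were tested in the Asb2 cKO against the control. Casr, the calcium-sensing receptor gene, rose in the Asb2 cKO (1.57, limma adjusted p = 0.0106) and in the doubly labelled libraries (1.82, adjusted p = 0.00226). Casr averaged 0.529 CPM in the control, under the filter of 1 CPM, so it entered these tests only through the groups with Asb2 deletion. It had 3.22, 2.33 and 3.96 CPM in the doubly labelled libraries, 1.78, 3.00 and 2.99 CPM in the Asb2 cKO libraries, 0.380, 1.11 and 1.14 CPM in the Flna-labelled libraries and 0.395, 0.576 and 0.616 CPM in the control libraries. Pth1r, the parathyroid hormone receptor gene, averaged 94.4 CPM in doubly labelled hearts, 93.8 CPM in Asb2 cKO hearts and 106 CPM in controls and did not pass (-0.16 for each group against the control).

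Downstream of the receptor, CALCRL signals through cyclic AMP. Of 26 genes of that pathway and of receptor uptake, 2 rose and 1 fell in the Asb2 cKO (median log2 fold change -0.20) and 3 rose and 4 fell in the doubly labelled libraries (median -0.08), each against the control. Over all genes 10.7% rose and 10.9% fell in the Asb2 cKO and 15.6% rose and 16.7% fell in the doubly labelled libraries, so these counts are not above the background. In the doubly labelled against the Flna-labelled libraries 3 of the 26 rose and 6 fell, where 15.1% of all genes rose and 16.3% fell. A further Pde4d identifier, outside the 26, rose there too (0.51, limma adjusted p = 0.0318). Pde4b, a phosphodiesterase that breaks down cyclic AMP, rose in the Asb2 cKO (1.27, limma adjusted p = 0.00488) and in the doubly labelled libraries (1.69, adjusted p = 6.22e-05). It had 59.3, 49.7 and 54.8 CPM in the doubly labelled libraries, 34.3, 59.7 and 32.9 CPM in the Asb2 cKO libraries, 18.6, 14.8 and 12.6 CPM in the Flna-labelled libraries and 13.5, 18.4 and 18.1 CPM in the control libraries, with Asb2 cKO library 2 the highest, as for Adm. Prkar1b, a regulatory subunit of protein kinase A, rose in both (1.37, adjusted p = 0.00534 in the Asb2 cKO, and 1.29, adjusted p = 0.00284 in the doubly labelled libraries). Prkaca, a catalytic subunit of the same kinase, fell in both (-0.37, adjusted p = 0.0495 in the Asb2 cKO, and -0.61, adjusted p = 0.00609 in the doubly labelled libraries). Gnas, which encodes the stimulatory G protein, was at 0.12 in the Asb2 cKO (adjusted p = 0.559) and 0.13 in the doubly labelled libraries (adjusted p = 0.39), and Nos3, the endothelial nitric oxide synthase gene, at -0.22 (adjusted p = 0.445) and -0.13 (adjusted p = 0.708).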

How the data were processed

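RNA of mouse hearts was sequenced in 12 libraries of 4 genotype groups, and the submitters' processing notes name STAR, HTSeq, edgeR and the mm10 build, without versions. The annotation, strand and filters used are not given in the sources used here. The authors deposited 4 files, each with a pair of groups, whose expression columns are headed CPM. These values are a scaled signal, since the deposited columns sum to 942334 to 1051801 and 100.0% of values are whole multiples of 1 read (within 0.01 read), whereas the design had assumed plain CPM. The deposited tables also hold log2 fold changes, p-values and FDR from the authors' own test, and 12 columns without a header were not used. Tables give the same value for a library to within 4.4e-06 CPM and were joined by gene identifier. A gene missing from a table was not set to 0.

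The tests were run in R 4.3.3 with limma 3.58.1, using its trend and robust options, on log2(CPM + 0.5). Genes averaging 1 CPM or more in the libraries of a fit entered it, and p was adjusted by Benjamini-Hochberg with a threshold of 0.05. The interaction used all 12 libraries. The recovered reads were also tested with edgeR 4.0.16 and DESeq2 1.42.0. Other settings were pseudocounts of 0.1 and 2, no filter or a filter of 5 CPM, a median-of-ratios scaling, limma without trend or robust, a replicate block, a joint fit, Xist as a covariate and each library left out. Replicates of a group always differed beyond sampling noise. The steps were tested on simulated counts.

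The genes described and the 14 lists were chosen with earlier results of these data known. Named from each list were up to 4 genes past the threshold with the smallest p in a comparison, with Vegfa and Pecam1 always named, and genes most alike were the 3 with the highest r over 12 libraries, without names of clones, models and pseudogenes. One gene of a list and one of those most alike are not reported here. Pfkfb4, Tfrc, Gnas, Nos3, Pth1r, Calcr and Ackr3 levels, correlations within clusters and those of Adm2 were added after values were seen. Positions are from GENCODE M21, which holds 15522 of the identifiers, and promoters from RefSeq on GRCm38.p6, where 5 of the 6 genes have an entry. Python 3.11.15, numpy 2.4.6, pandas 2.3.3, the data.table package (1.17.8) and matplotlib 3.10.9 were used.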

Additional observations from a re-analysis of the deposited data

Results flagged for a closer look

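For Ramp2, every Asb2 cKO library lay below the control mean while every doubly labelled library lay above the Flna-labelled mean, and likewise every Flna-labelled library lay below the control mean while every doubly labelled library lay above the Asb2 cKO mean, so the difference between these effects was examined. The effect of Asb2 deletion differed by 0.73 on the log2 scale between hearts with and without the Flna label, which is the same quantity as the difference of the Flna label's effect with and without Asb2 deletion (0.73, limma unadjusted p = 0.00232, adjusted p = 0.416). Ramp2 stood at 73.1 ± 10.8 CPM in the doubly labelled libraries, 54.4 ± 4.79 CPM in the Asb2 cKO, 60.1 ± 9.27 CPM in the Flna-labelled libraries and 74.8 ± 7.99 CPM in the control (SD, n = 3 each). The interaction did not pass over all genes. Its median was 0.71 over 17 cardiomyocyte markers and 0.41 over 25 endothelial and endocardial markers, and their part in the Ramp2 value was not tested.

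For Calcrl, the effect of the Flna label differed by 0.44 between hearts with and without Asb2 deletion (limma unadjusted p = 0.0541, adjusted p = 0.507). It was singled out because every doubly labelled library lay above the Asb2 cKO mean while every Flna-labelled library lay below the control mean, and the interaction did not pass.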

How the results depend on the processing

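The rise of Adm held in direction and passed under every alternative run, 17 each for the Asb2 cKO against the control (1.83 to 2.3), the doubly labelled libraries against the control (2.11 to 2.33) and the doubly labelled libraries against the Flna-labelled libraries (1.98 to 2.37). That of Adm2 did so under 15 alternatives in the Asb2 cKO (2.0 to 4.06, where the lowest value is with a pseudocount of 2) and 16 in the doubly labelled libraries (2.5 to 4.61). In the joint fit of the 4 groups 1 gene was called in the doubly labelled libraries against the control, since Adm2 is not in that fit. Leaving out 1 library gave 1 to 3 genes called in the doubly labelled libraries against the Flna-labelled libraries.

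The replicate numbers did not pair libraries, as correlations of same-numbered libraries ran from -0.465 to 0.426. With the replicate block Ramp2 in the Asb2 cKO did not pass (-0.45, adjusted p = 0.119), while Calcrl in the doubly labelled libraries against the control (0.31, adjusted p = 0.0397) and Ramp2 in the doubly labelled libraries against the Flna-labelled libraries (0.28, adjusted p = 0.0453) did. Ramp2 in the Asb2 cKO also missed the threshold with limma without trend or robust (adjusted p = 0.0743). The block called 1557 genes in the Asb2 cKO, against 3033 without it.

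Counts over all genes in the Asb2 cKO against the control fell to 1771, 1581 and 2004 without control library 1, control library 2 and Asb2 cKO library 2. The count was 2875 without doubly labelled library 2 for the doubly labelled libraries against the control (4523 with all libraries), and 2805, 2776 and 2712 without Flna-labelled libraries 1 and 2 and doubly labelled library 2 against the Flna-labelled libraries (4394). Over all alternatives it ran from 0 to 244 for the Flna-labelled libraries against the control (10) and from 0 to 26 for the doubly labelled libraries against the Asb2 cKO (3). On the recovered reads edgeR called 2818 genes and DESeq2 3816 in the Asb2 cKO against the control. In the doubly labelled libraries they called 4382 and 5070 against the control and 4294 and 4976 against the Flna-labelled libraries. For the interaction there were 71 calls with DESeq2, 5 with the Xist covariate and up to 18 without 1 library.

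Signs turned only for differences that did not pass. Ranges here are over leaving out each library in turn. For the Flna-labelled libraries against the control, Adm was at -0.03 with the Xist covariate and ranged from -0.11 to 0.28, and Ramp3 from -0.06 to 0.63. For the doubly labelled libraries against the control, Ramp1 ranged from -0.29 to 0.06 and Ramp2 from -0.15 to 0.06. Against the Asb2 cKO, Adm was at -0.26 and Ramp3 at 0.02 with Xist, and they ranged from -0.04 to 0.44 and from -0.56 to 0.05. Against the Flna-labelled libraries, Ramp1 was at -0.01 with Xist and ranged from -0.04 to 0.43, and Ramp3 from -0.2 to 0.72. The Adm interaction was -0.03 with edgeR and -0.02 with DESeq2 and ranged from -0.14 to 0.37, and that of Ramp3 from -0.9 to 0.02. The causes were not tested. Depth bears most on Adm2 in the control, at 14 to 18 reads, while Ramp3, at 10 to 104 reads, also spread widely within groups.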
